A study of Mus musculus with 88 samples.

Results

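The kidney medulla of mice irradiated at collum, thorax and abdomen (group C, 3 mice) was compared with the kidney medulla of sham-irradiated controls (5 mice). These 8 arrays were taken by their labelled tissue and irradiated area from the 88 arrays of the study, which cover 6 tissues of 14 mice. All mice were females of a Balb/c nude strain aged 4 months, which is athymic and so lacks mature T cells, and the groups share this limit as a model. Group C received a single absorbed dose of 2 Gy of 4 MV photons with the kidneys inside the field. Group B (3 mice) received the same dose at thorax and abdomen, also with the kidneys inside the field. Group A (3 mice) received it at the collum alone, with the kidneys outside the field. The controls received 0 Gy, and the mice of all groups were anesthetized. Tissue was excised at 24 h, and its total RNA was hybridized to Illumina MouseRef-8 arrays with 25697 probes each. The questions were how far the medulla of group C differed from that of controls, and how it differed from group A and from group B.

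Levels are given as log2 intensity after background correction and quantile normalization of the 14 medulla arrays, and levels of different probes were not compared. A probe was taken as detected on an array at a detection p under 0.01, and the 12296 probes detected on at least 3 medulla arrays were tested. The log2 ratio is the mean of group C minus the mean of controls, and it is given with its standard error (SE) from a limma fit over all 14 arrays, with 3 mice in group C and 5 controls. Transcripts were called regulated where the log2 ratio was at or beyond 0.58 on either side of 0 and the p adjusted after Benjamini and Hochberg was below 0.01. Adjusted p values throughout come from limma and were taken over all tested probes. The labels number the replicates of a group without naming animals, and each number was taken as 1 mouse.

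The renal medulla holds the loops of Henle and the collecting ducts, which together build the salt and urea gradient that concentrates urine. Its cells live in high osmolality and low oxygen, and they express osmolyte transporters, urea transporters and chaperones at high levels. Ionizing radiation breaks DNA, and the transcription factor p53 is then stabilized and raises the transcription of genes that halt the cell cycle, repair DNA or lead to cell death. Cdkn1a (the cyclin-dependent kinase inhibitor p21), Mdm2 (the ubiquitin ligase that degrades p53), Ccng1 and Phlda3 are among its best known targets in mouse tissues.

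On the group C arrays 45.32%, 45.74% and 41.75% of the probes were detected, against 42.94% to 44.08% on the control arrays. The lowest of all 14 medulla arrays was that of group C replicate 3. Its values correlated with those of the controls at a mean Pearson r of 0.983 across probes, and with groups A and B at 0.975 and 0.976. For group C replicate 1 the mean r was 0.969 with controls and 0.984 and 0.987 with groups A and B. Group C replicate 2 stood apart from every other array, with a mean r of 0.923 with controls and 0.940 with the other group C arrays. Genes are not independent replicates, and these correlations describe the arrays. Leaving out single group C mice changed most calls. Of the 47 probes described below that had an adjusted p under 0.05 without being regulated, 10 stayed under it without replicate 1, 2 without replicate 2 and 47 without replicate 3. For 10 of the 47 the ratio was more than 1.5 times smaller without replicate 2, and this value is given for all but Tpt1 and Txnrd1, for which only a bound is given.

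The labelled tissue was checked against segment markers on a scale common to both parts of the kidney. In control mice the urea transporter Slc14a2 had a mean log2 intensity of 10.11 in the medulla and 4.56 in the cortex. The water channel Aqp2 of the collecting duct had 10.53 in the medulla and 9.04 in the cortex, and Aqp4 had 11.42 in the medulla and 9.52 in the cortex. Markers of the proximal tubule, a mainly cortical segment, were also bright in the medulla samples, with 14.79 for Slc34a1 against 15.01 in the cortex and 13.92 for Miox against 14.50. The samples thus held medullary markers together with those of neighbouring segments.

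In group C 16 transcripts were regulated, 0.13% of those tested, and each had a higher level than in controls. None was regulated downward. Against the same controls 15 of the 16 were also regulated in group A, whose kidneys were outside the field. In group B 16 of the 16 were. Of all 12296 tested probes 113 were regulated in both group A and group B, and the share regulated in each group alone is not given here. These comparisons share the controls, so that the overlap is no independent evidence. The 16 transcripts encode proteins of many compartments. Vbp1 is a subunit of the prefoldin chaperone. Its log2 intensities were 9.31, 9.46 and 9.18 in group C and 7.89, 7.98, 8.31, 7.86 and 8.05 in controls, for a log2 ratio of 1.30 (SE 0.15, adjusted p = 0.00292). Tomm22, the central receptor of the protein import channel in the outer mitochondrial membrane, had 8.16, 8.08 and 7.79 in group C and 6.64, 6.70, 6.92, 6.93 and 6.98 in controls, a log2 ratio of 1.18 (SE 0.12, adjusted p = 0.00225). Nampt, the rate-limiting enzyme of NAD salvage, had 10.40, 10.34 and 10.22 in group C and 9.28, 9.01, 9.20, 8.98 and 9.40 in controls, a log2 ratio of 1.14 (SE 0.13, adjusted p = 0.00229). All 3 group C mice lay above all controls for these genes, and the lowest group C value exceeded the highest control by more than the range of the group C values.

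Among the other regulated transcripts, 2 belong to the control of cell survival. Bcl2, which blocks the release of cytochrome c from mitochondria, had 8.18, 8.35 and 8.07 in group C and 7.31, 7.51, 7.21, 7.32 and 7.38 in controls, a log2 ratio of 0.85 (SE 0.12, adjusted p = 0.00906). Birc2, a ubiquitin ligase of the inhibitor of apoptosis family, had 8.14, 8.24 and 7.49 in group C and 6.68 to 7.12 in controls, a log2 ratio of 1.09. Noct, a clock-controlled enzyme, had 8.11, 8.12 and 7.99 in group C and 6.65 to 7.26 in controls, a log2 ratio of 1.08. Further regulated transcripts take part in protein turnover and transport. They were Chmp5 of the endosomal sorting machinery with a log2 ratio of 1.13, the depalmitoylating enzyme Lypla1 with 1.10, and the kinesin motor Kif1b with 0.84. Ankrd17, an ankyrin repeat protein, had a ratio of 1.24, and the elongation factor subunit Eef1b2 had 1.01.

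A pair of regulated transcripts belongs to tubule cells. Ptger3, the EP3 receptor for prostaglandin E2, had 10.25, 10.10 and 9.98 in group C and 8.81, 9.28, 9.09, 9.08 and 9.25 in controls, a log2 ratio of 1.01 (SE 0.14, adjusted p = 0.00906). Mep1a, the alpha subunit of the brush border protease meprin, had 12.57, 12.46 and 12.05 in group C and 11.48, 11.47, 11.53, 11.53 and 11.53 in controls, a log2 ratio of 0.85 (SE 0.12, adjusted p = 0.00899). The Mep1a controls lay within 11.47 to 11.53, a range narrower than the gap to any group C mouse.

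**Figure D1:**
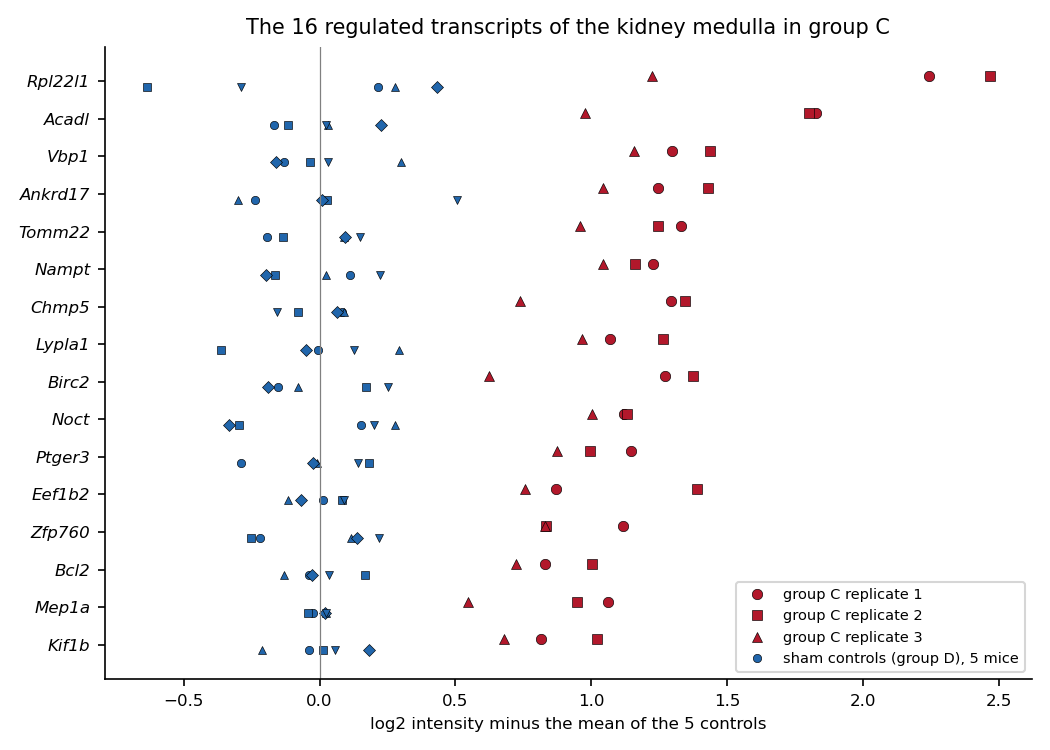
Log2 intensity minus the mean of the 5 controls (horizontal axis) of the 16 regulated transcripts (rows) in the kidney medulla, with 1 point for each mouse of group C and of the controls. All 3 group C mice lie above all 5 controls in every row, and group C replicate 3 lies closest to the controls in many rows. These include Rpl22l1, Acadl, Birc2, Chmp5, Vbp1, Tomm22, Nampt, Bcl2, Noct, Ptger3 and Mep1a.

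For 3 of the 16 the probe was not well above background on any control array, so that only a bound on the fold is given, from the group C mean against the lowest detected signal. Rpl22l1, a paralog of the ribosomal protein Rpl22, had 7.55, 7.77 and 6.53 in group C and 5.52, 4.67, 5.58, 5.74 and 5.02 in controls, and was at least 2.8-fold higher in group C. Acadl, the long-chain acyl-CoA dehydrogenase of fatty acid oxidation, had 6.54, 6.51 and 5.69 in group C, where it was detected on 2 arrays, and 4.54 to 4.94 in controls, at least 1.36-fold higher. The zinc finger protein Zfp760 had 6.52, 6.24 and 6.24 in group C and 5.16 to 5.62 in controls, at least 1.45-fold higher. Such probes passed the detection filter through irradiated arrays only, where they are bright. Their difference from controls is thus a description, and so is their place among the 16.

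Other probes of the same genes did not always show the difference. For 10 of the 16 genes 19 other probes were tested, with log2 ratios of -0.58 to 1.03. Of these 1 had all group C mice above all controls, against 5.91% of all tested probes. At an unadjusted p under 0.05, 5 of the 19 were higher and 2 lower, against 13.1% and 13.6% of all tested probes. The brightest probe of Lypla1 had 10.10, 9.85 and 10.54 in group C and 10.59 to 10.85 in controls, a log2 ratio of -0.58 (adjusted p = 0.0471), opposite to the regulated probe. For Nampt the dimmer probe had 7.75, 7.64 and 6.53 in group C and 5.96 to 6.63 in controls, a log2 ratio of 1.03, with replicate 3 inside the control range. Without replicate 1 or 2 the adjusted p of these probes of Lypla1 and Nampt was 0.0895 to 0.196. The ratios of this paragraph and of the regulated transcripts are those of single probes.

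At an adjusted p under 0.05, 397 transcripts were higher (3.23%) and 167 were lower (1.36%). The tested probes include 392 that no control array detected and that passed the detection filter through irradiated arrays only. Calls of such probes are part of these counts and of those below, so that more higher than lower calls is no result. The count of regulated transcripts depended on single mice, and the adjusted p of the 16 was 0.0138 to 0.0503 without replicate 1 or 2. Leaving out group C replicate 1 or replicate 2 gave 0, leaving out replicate 3 gave 844 (599 higher or 4.88%, and 245 lower or 2%), and the count lay between 2 and 4 without any 1 of the controls. The adjusted p of Tomm22 was 0.0138 without replicate 2 and 9.38e-05 without replicate 3, and that of Vbp1 was 0.0269 and 0.000357. With only group C and the controls in the fit 0 transcripts were regulated, while 2476 had an unadjusted p under 0.05.

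The p53 targets were described next from a list of 36 genes, of which 33 were on the array and 25 were tested, each by its brightest probe. At an unadjusted p under 0.05, 14 of the 25 were higher and 2 were lower in group C, against 13.1% higher and 13.6% lower among the brightest probes of all 8617 genes. For 7 of the 25 all group C mice lay above all controls, against 6.08% of all genes. The median log2 ratio of the list was 0.39, against -0.02 over all genes. The mean log2 intensity of the list was 9.04, 9.30 and 9.04 in the group C mice and 8.72 to 8.75 in the controls, and the groups did not overlap. Of the list, Cdkn1a, Ccng1 and Zmat3 passed an adjusted p of 0.05 with their brightest probe, and none was regulated.

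To show what stands upstream of these genes, promoters were searched for a pair of p53 half-sites. RefSeq windows of 300 bases (GRCm38.p6, 250 bases before to 50 after each start) were used, and 1 mismatch over both half-sites and at most 1 base between them were allowed. The p53 half-site is its own reverse complement, so that a match on 1 strand is a match on both. Of 32851 windows 36 held the pair (0.11%). Of the 25 tested p53 targets 18 had a window, and those of Cdkn1a, Ccng1 and Rps27l held the pair. The windows of Cdkn1a, which had the largest ratio of the list, and of Ccng1, for which 3 probes had all group C mice above all controls, are shown with the matched pair in capitals. The Cdkn1a window lies at chr17:29090729-29091028 on the plus strand, with the pair beginning 51 bases before the start. The Ccng1 window lies at chr11:40755237-40755536 on the minus strand, with the pair beginning 195 bases before the start. A match is a run of letters and not a measured binding site.
Cdkn1a: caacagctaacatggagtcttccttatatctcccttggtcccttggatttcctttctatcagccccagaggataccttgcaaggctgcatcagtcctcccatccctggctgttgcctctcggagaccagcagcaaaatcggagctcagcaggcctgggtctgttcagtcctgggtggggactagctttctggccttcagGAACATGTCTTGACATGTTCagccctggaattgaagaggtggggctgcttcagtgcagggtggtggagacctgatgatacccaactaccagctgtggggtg
Ccng1: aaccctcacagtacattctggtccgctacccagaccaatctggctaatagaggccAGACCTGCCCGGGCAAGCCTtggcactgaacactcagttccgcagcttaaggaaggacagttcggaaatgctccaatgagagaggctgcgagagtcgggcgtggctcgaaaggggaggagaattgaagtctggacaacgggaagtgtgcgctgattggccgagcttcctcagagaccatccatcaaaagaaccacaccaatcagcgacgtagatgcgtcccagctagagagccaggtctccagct

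Cdkn1a, which halts the cell cycle, had the largest ratio of the list. Its log2 intensities were 8.40, 11.41 and 8.77 in group C and 6.94, 7.82, 7.22, 7.68 and 7.02 in controls, a log2 ratio of 2.19 (SE 0.50, adjusted p = 0.0369). Replicate 2 was the highest of the group C mice, and without it the ratio was 1.25 (adjusted p = 0.0694). Another Cdkn1a probe had 6.77, 9.49 and 7.31 in group C and 5.55 to 6.36 in controls, of which 3 arrays detected it, a log2 ratio of 1.91 (adjusted p = 0.0397) that was 1.10 without replicate 2 (adjusted p = 0.103). The dimmest Cdkn1a probe was not well above background on any control array and was at least 1.92-fold brighter in group C but missed the 0.05 level (adjusted p = 0.128), with replicate 1 inside the control range. That probe passed the detection filter through irradiated arrays only, so that its difference is a description.

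Ccng1, the cyclin G1 gene, was measured by 3 probes, and for each of them all group C mice lay above all controls. Its brightest probe had 11.95, 11.71 and 12.21 in group C and 11.51, 11.29, 11.32, 11.33 and 11.56 in controls, a log2 ratio of 0.56 (SE 0.13, adjusted p = 0.0394). Another had 10.29, 10.60 and 10.43 in group C and 9.56, 9.52, 9.78, 9.63 and 9.49 in controls, a log2 ratio of 0.85 (SE 0.13, adjusted p = 0.013). The remaining probe had a log2 ratio of 0.85 (adjusted p = 0.0132). The 3 group C mice were close together, and without replicate 1 or 2 the adjusted p of the 3 probes was 0.0285 to 0.0764.

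Phlda3, which opposes Akt signalling, had 7.49, 8.15 and 7.59 in group C and 6.19, 6.42, 6.69, 6.62 and 6.54 in controls, a log2 ratio of 1.25 (SE 0.22, adjusted p = 0.0155). Its brighter probe had 7.99 to 8.11 in group C and 6.93 to 7.83 in controls, a log2 ratio of 0.75 (adjusted p = 0.0944). Zmat3, an RNA-binding zinc finger protein, had 8.81, 9.15 and 9.23 in group C and 8.46, 8.49, 8.48, 8.51 and 8.43 in controls, a log2 ratio of 0.59 (SE 0.12, adjusted p = 0.0273). Mdm2 had 10.22, 10.53 and 10.47 in group C and 9.85 to 10.10 in controls, a log2 ratio of 0.42 (adjusted p = 0.0508), and its other probe had 0.33 (adjusted p = 0.165). The adjusted p of Phlda3 and Zmat3 was 0.0324 to 0.0993 without replicate 1 or 2. No group C mouse fell into the control range of Phlda3, Zmat3 or the first Mdm2 probe.

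Trp53inp1, a stress protein that promotes p53 activity and autophagy, had 8.92, 9.51 and 9.34 in group C and 6.97 to 8.75 in controls with its brighter probe, a log2 ratio of 1.22 (adjusted p = 0.074). The dimmer probe had 7.50, 8.37 and 7.29 in group C and 4.90 to 6.53 in controls, where 2 arrays detected it, a log2 ratio of 2.05 (adjusted p = 0.0155, and 0.0725 without replicate 2). Slc19a2, a thiamine transporter, had 9.33, 9.64 and 8.97 in group C and 8.30 to 8.94 in controls, a log2 ratio of 0.61 (adjusted p = 0.064). Mdm2, Slc19a2 and the following targets did not pass an adjusted p of 0.05 with any probe. The death receptor Fas had 0.39 and 0.33 for its probes, Ephx1 (microsomal epoxide hydrolase) had 0.52, the kinase Plk2 had 0.51, and the cell death gene Bbc3 had 0.39. Ddit4, an inhibitor of mTOR that glucocorticoids also induce, had 0.68, and its relative Ddit4l had 0.85, and in both replicate 2 was the highest of these 8 mice. The sugar reductase Dcxr had negative ratios of -0.79 and -0.65, with the lowest value in replicate 2 for both probes.

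**Figure D2:**
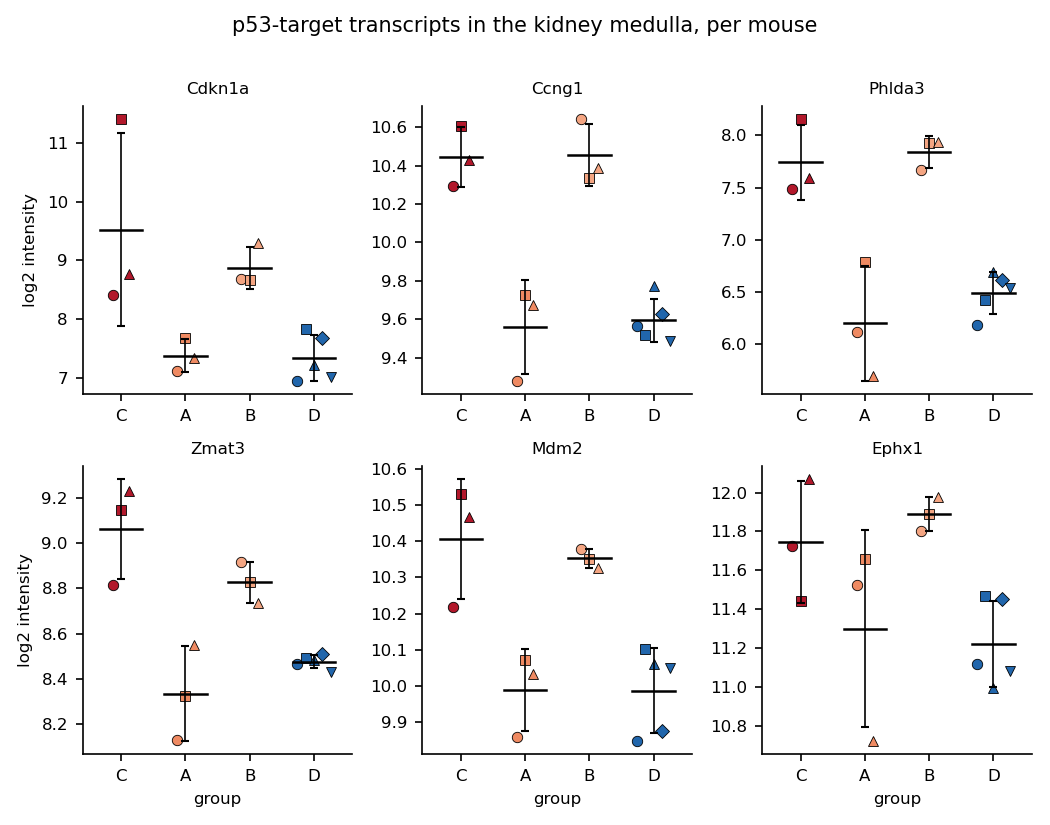
Log2 intensity (vertical axes) of p53 target probes in the kidney medulla of group C, group A, group B and controls, with 1 point per mouse, the replicate number as the point's shape, a line at each group mean and an error bar of 1 SD. Group C lies above all controls for Cdkn1a, Ccng1, Phlda3 and Zmat3, with group C replicate 2 at 11.41 for Cdkn1a, while group A lies near the controls for these genes.

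The count of p53 targets that were higher at an unadjusted p under 0.05 was 10 of 25 without replicate 2, against 8.61% of all genes in that fit, 0 were lower, against 6.9%, and the median was 0.34. Without replicate 3 it was 14 of 25, against 17% of all genes, 2 were lower, against 20.2%, and the median was 0.43. Without replicate 1 it was 11 of 25, against 12.8% of all genes, 1 was lower, against 14.2%, and the median was 0.33. The list was written with earlier results of these mice known.

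The kidneys of group A were outside the field, and those of group B inside it. Against controls, which these comparisons share, the p53 targets had a median log2 ratio of 0.06 (group A) and 0.32 (group B), beside 0.39 in group C. Group C was also compared with the irradiated groups directly, without the controls. Against group A, 8 of the 25 were higher and 0 lower at an unadjusted p under 0.05, where 4.44% of all genes were higher and 2.77% lower, and the median difference was 0.25. Against group B, 0 of 25 differed at this level, where 4.08% of all genes were higher and 3.71% lower, and the median difference was 0.04. Ccng1 had 10.29, 10.60 and 10.43 in group C and 9.28, 9.73 and 9.68 in group A, a difference of 0.88 (SE 0.15, unadjusted p = 4.21e-05, adjusted p = 0.259 in limma). Phlda3 had 7.49, 8.15 and 7.59 in group C and 6.12, 6.79 and 5.69 in group A, a difference of 1.54 (SE 0.25, adjusted p = 0.259 in limma). For both genes group C lay above all mice of group A, but neither difference passed the adjustment over all probes.

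For Cdkn1a the difference between group C and group A was 2.16 (SE 0.56, adjusted p = 0.397). Group A had 7.11, 7.67 and 7.33 for this probe, and group B had 8.67, 8.66 and 9.29. For Zmat3 the difference was 0.73 (SE 0.14, adjusted p = 0.361). The dimmer probe of Trp53inp1 had overlapping values in the irradiated groups. Group A had 7.17 to 7.84 and group B 7.01 to 8.16, and the difference of group C from group A was 0.23 (SE 0.40). Over all probes 0 transcripts were regulated between group C and group A, and 925 (7.52%) had an unadjusted p under 0.05. Between group C and group B 0 were regulated, and 973 (7.91%) had an unadjusted p under 0.05.

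A set of probes was near background in controls and bright in group C replicates 1 and 2, but not in replicate 3. A dim probe does not show that its gene is little expressed, and brighter probes of Mdh1 and Suclg1 below did not share this pattern. The translation elongation factor Eef1a1 had 7.76, 8.39 and 4.43 in group C and 4.55, 4.50, 4.50, 4.35 and 4.63 in controls. Its probe was detected on 2 of 3 group C arrays and on no control array, and the group C mean was at least 2.09-fold higher. The probe passed the detection filter through irradiated arrays only, so that this difference is a description and no test of it is given, and the same holds for the probes of Mdh1, Suclg1, Tpt1 and Itm2b below that no control array detected. In groups A and B the same probe had 7.78 to 8.03 and 7.86 to 8.02, above every control. Replicate 3 of group C thus had the level of controls, and the other irradiated mice did not.

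The same division was seen for single probes of other genes. A probe of Mdh1, the cytosolic malate dehydrogenase, had 8.20, 7.57 and 4.97 in group C and 4.61 to 5.29 in controls, at least 2.16-fold higher. Its brightest probe did not show the division, with 10.98, 10.62 and 10.67 in group C and 10.03 to 10.60 in controls, a log2 ratio of 0.41 (adjusted p = 0.14). A probe of Suclg1, a subunit of succinyl-CoA ligase, had 7.85, 6.97 and 5.05 in group C and 4.48 to 5.03 in controls, at least 1.77-fold higher. The brightest Suclg1 probe had 13.65, 13.47 and 13.53 in group C and 13.36 to 13.59 in controls, with a log2 ratio of 0.06 (adjusted p = 0.73). Tpt1, the translationally controlled tumor protein, had 7.33, 8.10 and 4.74 in group C and 4.61 to 5.06 in controls, at least 1.9-fold higher, and the membrane protein Itm2b had 7.40, 7.04 and 4.43 in group C and 4.41 to 4.90 in controls, at least 1.41-fold higher. Acin1, an RNA processing factor, was detected in every mouse of both groups and had 10.06, 9.54 and 7.47 in group C and 7.24, 7.17, 7.20, 6.77 and 7.36 in controls, a log2 ratio of 1.87 (SE 0.42, adjusted p = 0.031), with an adjusted p of 0.0829 to 0.146 without replicate 1 or 2. For Eef1a1, the dim Mdh1 probe, Tpt1 and Itm2b replicate 3 lay inside the control range, and for the dim Suclg1 probe and Acin1 it was just above it. In groups A and B Acin1 had 9.57 to 10.30 and 9.66 to 10.05.

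**Figure D3:**
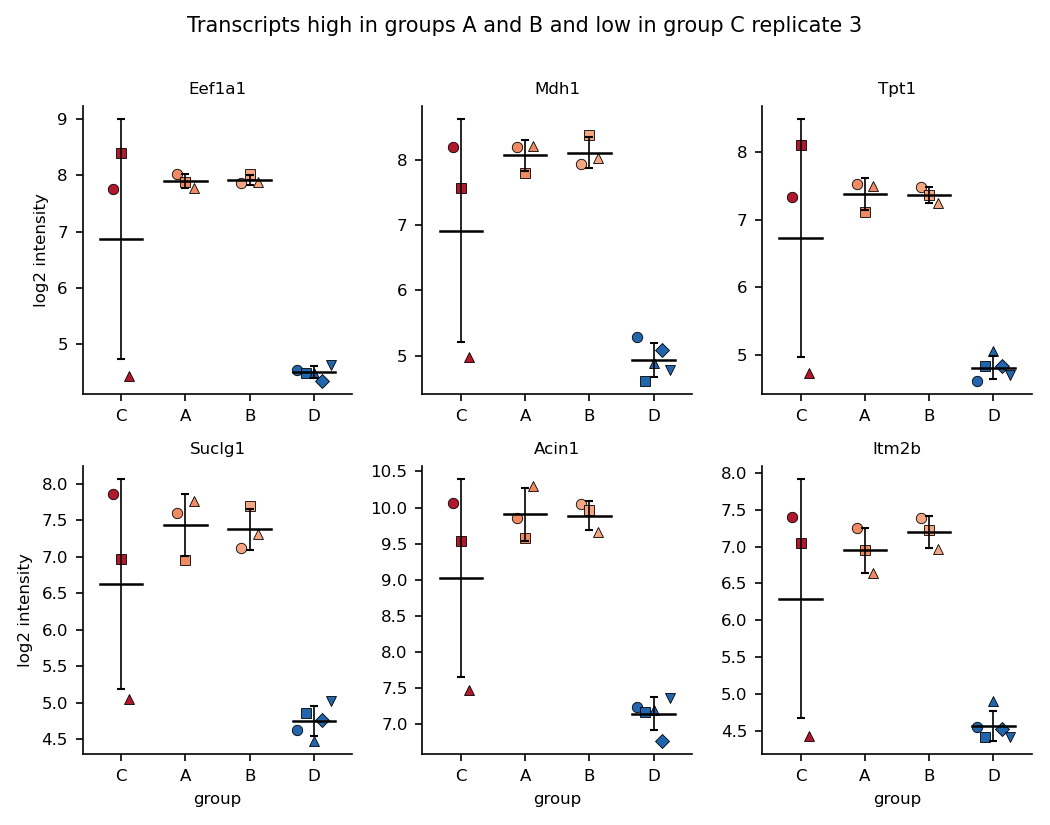
Log2 intensity (vertical axes) of single probes that were low in group C replicate 3, in the kidney medulla of group C, group A, group B and controls, with 1 point per mouse, the replicate number as the point's shape, a line at each group mean and an error bar of 1 SD. For Eef1a1 replicate 3 is at 4.43, among the controls, while group C replicates 1 and 2 are at 7.76 and 8.39.

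Over all arrays, 392 probes were tested although no control array detected them. They passed the detection filter through irradiated arrays, so their counts describe the group C mice among themselves and not a difference from controls. Of these, 177 were detected in group C replicates 1 and 2 but not in replicate 3, 83 in replicate 2 only and 19 in all 3 mice. Over all tested probes the value lay inside the range of the controls for 48.6% in replicate 1, 29.3% in replicate 2 and 62.1% in replicate 3. Over the 113 probes that were regulated, all of them higher, in both group A and group B, the median height above the control mean was 1.30 in replicate 1, 1.16 in replicate 2 and 0.46 in replicate 3. That set was chosen with the same controls, so its height over them is no result, but the distance between the group C mice does not rest on the controls.

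Of the 844 transcripts regulated without replicate 3, this mouse lay inside the control range for 414. That is a smaller share than the 62.1% it had over all tested probes. The 844 were chosen by their difference from these same controls, so that the shares are not alike and no conclusion is drawn. The list mean of the p53 targets was 9.04 in replicate 3, the same as that of replicate 1. The probes of the Eef1a1 type were chosen because replicate 3 was low in them. The part of the lower detection of replicate 3 in these values was not tested.

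All group C mice lay above all controls for 5.91% of the tested probes and below them for 6.37%, and those with the largest ratios among these were described by direction. On the higher side were Cd24a, a glycoprotein of epithelial cells, with 7.18, 8.28 and 5.99 in group C and 4.64 to 5.49 in controls, at least 2.55-fold higher, and the tetraspanin Tspan3 with 7.39, 7.81 and 5.75 in group C and 4.79 to 5.52 in controls, at least 2.27-fold higher. Spon1, an extracellular matrix protein, had 7.20, 8.01 and 6.72 in group C and 4.77 to 6.14 in controls, of which 2 arrays detected it, a log2 ratio of 1.99 (adjusted p = 0.0205). Ccni, cyclin I, had 7.30, 6.99 and 5.19 in group C and 4.53 to 4.91 in controls, at least 1.62-fold higher. Slc38a2, an amino acid transporter that responds to starvation and to osmolality, had 10.42, 11.97 and 9.87 in group C and 8.85 to 9.48 in controls with its dimmer probe, a log2 ratio of 1.54 (adjusted p = 0.0384). Without replicate 2 this ratio was 0.93 (adjusted p = 0.121), and with the brighter probe and all mice the ratio was 0.82 (adjusted p = 0.0897). Cd24a, Tspan3 and Ccni were detected on no control array, so that their differences are descriptions, and without replicate 1 or 2 the adjusted p of Spon1 was 0.0584 to 0.0985. Replicate 3 was the lowest of the group C mice for each of these transcripts.

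On the lower side Hpd, which breaks down tyrosine, had 9.02, 7.39 and 8.86 in group C and 10.52, 9.71, 10.53, 10.33 and 9.57 in controls, a log2 ratio of -1.71 (SE 0.34, adjusted p = 0.0224). Acsm5, a medium-chain acyl-CoA synthetase, had 9.49, 7.45 and 9.47 in group C and 10.32, 10.40, 10.31, 10.18 and 10.15 in controls, a log2 ratio of -1.47 (SE 0.35, adjusted p = 0.0385). Inmt, a methyltransferase, had 8.65, 7.08 and 8.83 in group C and 9.49 to 9.86 in controls, a log2 ratio of -1.45 (adjusted p = 0.0491). Fancd2os had 6.29, 4.50 and 5.95 in group C and 6.66 to 7.42 in controls, a log2 ratio of -1.52 (adjusted p = 0.0242), and the membrane protein Susd2 had -1.34 (adjusted p = 0.0452). Replicate 2 was the lowest mouse for all of these genes, and without it the ratio was -1.20 for Hpd (adjusted p = 0.0821), -0.79 for Acsm5 (adjusted p = 0.0287), -0.89 for Inmt (adjusted p = 0.214), -0.98 for Fancd2os (adjusted p = 0.0577) and -0.70 for Susd2 (adjusted p = 0.0725). Fancd2os was detected on 1 of 3 group C arrays.

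Further lower transcripts included Slc22a26, an organic anion transporter of the mouse, with a log2 ratio of -1.24 (adjusted p = 0.0282), and the chemokine Ccl21c with -1.33 (adjusted p = 0.0374). Lypd1 was not well above background on any group C array, with 5.54, 4.57 and 5.66 in group C and 5.75 to 7.23 in controls, and was at least 1.85-fold lower in group C. Its probe passed the detection filter through arrays of the other groups only, so that this difference is a description. Pbld1 with -1.23 (adjusted p = 0.0811) and the calcium-binding protein Sri with -1.56 (adjusted p = 0.0727) had all group C mice below all controls but did not pass an adjusted p of 0.05. Slc22a26 and Sri were detected on 2 group C arrays and Ccl21c on 1. Without replicate 1 or 2 the adjusted p of Slc22a26 and Ccl21c was above 0.05.

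Genes induced by glucocorticoids, together with metallothioneins, were described from a list of 13, of which 11 were tested. Of these 8 were higher and 0 lower in group C at an unadjusted p under 0.05, against 13.1% and 13.6% of all genes, and 3 had all group C mice above all controls, against 6.08%. The list mean was 10.80, 11.55 and 11.14 in the group C mice and 10.45 to 10.70 in controls, and the median log2 ratio was 0.62. Dusp1, a phosphatase of MAP kinases, had 12.34, 12.38 and 11.93 in group C and 11.56, 11.49, 11.40, 11.69 and 11.81 in controls, a log2 ratio of 0.62 (SE 0.16, adjusted p = 0.0471). Fkbp5, a co-chaperone of the glucocorticoid receptor, had 8.59, 9.37 and 9.84 in group C and 8.51, 8.35, 8.52, 8.18 and 8.62 in controls, a log2 ratio of 0.83 (SE 0.23, adjusted p = 0.0558). The adjusted p of Dusp1 was 0.102 to 0.181 without replicate 1 or 2. Dusp1 was lowest in replicate 3, while Fkbp5 was highest in replicate 3 and its replicate 1 lay inside the control range.

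Sgk1, a kinase that glucocorticoids, aldosterone and high osmolality induce in tubule cells, had a log2 ratio of 0.70, with 13.06, 14.27 and 13.33 in group C and 12.67 to 13.10 in controls (adjusted p = 0.107). Tsc22d3, also called GILZ, had 11.55, 11.92 and 11.54 in group C and 10.94 to 11.47 in controls, a ratio of 0.46 (adjusted p = 0.0733), and the metallothionein Mt1 had a ratio of 0.48 (adjusted p = 0.134). Against controls the list's median was 0.12 for group A and -0.02 for group B. In the direct comparisons 3 of 11 genes were higher in group C than in group A (4.44% of all genes) and 6 of 11 higher than in group B (4.08% of all genes) at an unadjusted p under 0.05, and 0 were lower. Without replicate 2 the count against controls was 4 of 11 (8.61% of all genes) and the median 0.34, and without replicate 3 the count was 8 of 11 (17% of all genes) and the median 0.54.

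The counts of the lists that follow are at an unadjusted p under 0.05, where 13.1% of all genes were higher and 13.6% lower, and 8.61% were higher and 6.9% lower without replicate 2. Of 14 interferon response genes tested 6 were higher and 0 lower, with a median of 0.38, and without replicate 2 the count was 5 and the median 0.32. The antiviral gene Oasl2 had 9.97, 9.07 and 8.94 in group C and 8.20 to 8.95 in controls, a log2 ratio of 0.81 (adjusted p = 0.0558). Ratios were 0.62 for Ifit3, 0.39 for Ifitm3 and 0.52 for the ISG15 protease Usp18, and no interferon gene of the list passed an adjusted p of 0.05. Of 13 heat shock genes 5 were higher with a median of 0.56, but without replicate 2 only 2 were higher with a median of 0.14. The list mean of heat shock genes was 9.79, 10.56 and 9.39 in group C and 9.16 to 9.69 in controls, so that replicate 3 lay inside the control range.

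Hspe1, the mitochondrial chaperonin subunit Hsp10, had 10.80, 10.21 and 10.23 in group C and 9.72 to 9.92 in controls, a log2 ratio of 0.60 (adjusted p = 0.0481). Hsp90aa1, an inducible cytosolic chaperone, had 7.42, 8.52 and 5.14 in group C and 4.80 to 5.72 in controls, at least 2.34-fold brighter without passing 0.05 (adjusted p = 0.0687), again with replicate 3 among the controls. Its probe passed the detection filter through irradiated arrays only, so that this difference is a description, though it is counted among the higher heat shock genes above. The co-chaperone Bag3 had a ratio of 0.56 (adjusted p = 0.155). Among 11 chaperones of the endoplasmic reticulum 2 were higher and 1 lower, against 13.1% and 13.6% of all genes. They included Dnajb9 with 10.86, 11.70 and 10.45 in group C and 10.11 to 10.31 in controls, a ratio of 0.80 (adjusted p = 0.0452), and Hspa5, the chaperone BiP, with 7.50, 7.99 and 5.77 in group C and 4.98 to 5.86 in controls, a ratio of 1.52 (adjusted p = 0.0452). Hspa5 was detected on 2 group C arrays and 1 control array, so that its ratio rests in part on signals near background. Without replicate 2 the ratio of Dnajb9 was 0.45 (adjusted p = 0.128), and without replicate 1 or 2 the adjusted p of Hspe1 and Hspa5 was 0.0936 to 0.201.

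Of 20 tested NRF2 targets and antioxidant genes 4 were higher and 2 lower, against 13.1% and 13.6% of all genes. Txn1, thioredoxin, had 10.52, 10.81 and 9.76 in group C and 9.44, 9.34, 9.18, 9.45 and 9.63 in controls, a log2 ratio of 0.96 (SE 0.19, adjusted p = 0.0213). Its reductase Txnrd1 had 6.76, 7.73 and 5.71 in group C and 4.94 to 5.46 in controls, at least 1.91-fold higher, but passed the detection filter through irradiated arrays only. Gclc, the catalytic subunit of glutathione synthesis, had 8.29, 8.68 and 7.13 in group C and 6.29 to 7.20 in controls, a ratio of 1.23 (adjusted p = 0.0472), and the quinone reductase Nqo1 had 0.67 (adjusted p = 0.082). Without replicate 1 or 2 the adjusted p of Txn1 and Gclc was 0.0627 to 0.213. The median of the whole list was 0.05.

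Other lists were counted with all mice and with 1 group C mouse left out. With all mice 13.1% of all genes were higher and 13.6% lower. Without replicate 1 these shares were 12.8% and 14.2%, without replicate 2 they were 8.61% and 6.9%, and without replicate 3 they were 17% and 20.2%. Of 10 immediate early genes 3 were higher and 0 lower, with 5, 1 and 6 higher and 0 lower when replicate 1, 2 or 3 of group C was left out. Of 14 genes of the amino acid starvation response 5 were higher and 2 lower, with 4, 1 and 6 higher and 1, 1 and 3 lower on leaving out the same replicates in turn. Of 13 circadian clock genes 3 were higher and 0 lower, with 2, 4 and 1 higher and 2, 1 and 2 lower without replicate 1, 2 or 3. Of 10 thyroid hormone genes 1 was higher and 0 lower, with 3 higher and 1 lower without replicate 3.

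**Figure D4:**
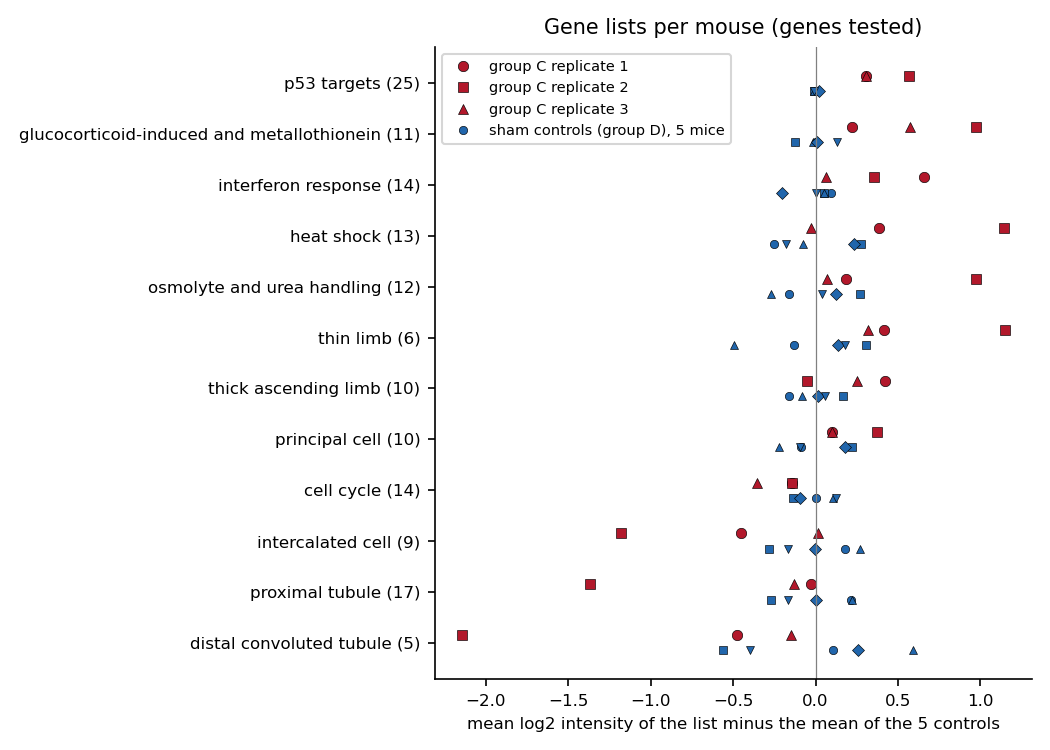
Mean log2 intensity of each gene list (rows, genes tested in brackets) in each mouse minus the mean of the controls (horizontal axis), with 1 point per mouse of group C, with its replicate number, and of the controls. The p53 targets of all 3 group C mice lie above the controls, and replicate 2 lies farthest from the controls for the proximal tubule and the distal convoluted tubule.

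Of 20 repair genes 3 were higher and 4 lower, with a median of 0.04. Over all genes 13.1% were higher and 13.6% lower, so that these counts are near those of all genes. Apex1, an endonuclease of base excision repair, had 8.23, 8.57 and 8.06 in group C and 7.44 to 7.71 in controls, a log2 ratio of 0.69 (adjusted p = 0.0306). Prkdc, the DNA-dependent protein kinase of end joining, was not well above background on any group C array, with 5.49, 5.00 and 5.55 in group C and 5.85 to 6.27 in controls, at least 1.24-fold lower. Brca2 was in the same position with 5.63, 5.25 and 5.88 in group C and 6.17 to 6.53 in controls, at least 1.51-fold dimmer without passing 0.05 (adjusted p = 0.0656). The probes of Prkdc and Brca2 passed the detection filter through arrays of the other groups only, so that their differences are descriptions. The adjusted p of Apex1 was above 0.05 without replicate 1 or 2. Of 14 cell cycle genes 0 were higher and 5 lower, with a median of -0.29. The replicative helicase subunit Mcm2 had 6.44, 6.46 and 6.77 in group C and 6.96 to 7.40 in controls, a ratio of -0.60 (adjusted p = 0.0656), with ratios of -0.48 for the centromere histone Cenpa and -0.57 for thymidylate synthase Tyms, and none passed an adjusted p of 0.05.

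Complex I of the respiratory chain and the citric acid cycle lie in mitochondria. Of 39 genes of complex I and its assembly 4 were higher and 7 lower, against 13.1% and 13.6% of all genes, with a median of -0.14. Without replicate 2 these counts were 5 and 2, against 8.61% and 6.9% of all genes. Ndufb9 had 11.39, 11.21 and 10.28 in group C and 9.80 to 10.37 in controls, a log2 ratio of 0.94 (adjusted p = 0.0318), and Ndufb4 had 9.37, 9.40 and 8.32 in group C and 7.70 to 8.41 in controls, a ratio of 0.92 (adjusted p = 0.0426). Of 19 citric acid cycle genes 4 were higher and 3 lower, and 5 and 0 without replicate 2. Among them Sdhd, a membrane anchor of succinate dehydrogenase, had 10.55, 10.37 and 9.69 in group C and 9.25, 9.11, 9.09, 9.29 and 9.19 in controls, a ratio of 1.02 (SE 0.19, adjusted p = 0.0196), and Dld, a subunit of the pyruvate and oxoglutarate dehydrogenases, had 9.91, 10.16 and 9.20 in group C and 8.40 to 9.12 in controls, a ratio of 0.98 (adjusted p = 0.0277). Of 57 cytosolic ribosomal protein genes, paralogs included, 8 were higher and 0 lower, with a median of 0.07, and 4 were higher and 1 lower without replicate 2. Rps3a1 had 10.12, 9.94 and 8.58 in group C and 8.20 to 8.66 in controls, a ratio of 1.08 (adjusted p = 0.0411), with replicate 3 inside the control range as for Ndufb9 and Ndufb4. Without replicate 1 or 2 the adjusted p of Ndufb9, Ndufb4, Sdhd, Dld and Rps3a1 was 0.0627 to 0.182.

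Segment markers differed between the group C mice. In bulk tissue fewer cells of a type and less RNA per cell cannot be told apart, and the share of each segment in a dissected sample was not measured. Of 17 proximal tubule genes 0 were higher and 6 lower, against 13.1% and 13.6% of all genes, with a median of -0.59. The list mean was 11.21, 9.87 and 11.10 in group C and 10.97 to 11.45 in controls. Only replicate 2 lay below the controls, and without it 1 gene was lower (6.9% of all genes) and the median was -0.09. Against controls the list's median was -0.30 in group A and -0.20 in group B. The phosphate transporter Slc34a1 had 14.47, 12.33 and 14.59 in group C and 14.23 to 14.78 in controls, a log2 ratio of -0.78 (adjusted p = 0.201). Miox, which breaks down inositol, had 13.28, 11.51 and 13.63 in group C and 13.26 to 14.12 in controls, a ratio of -0.95 (adjusted p = 0.125), and the brush border dipeptidase Dpep1 had 8.52, 7.71 and 8.68 in group C and 8.76 to 9.97 in controls, a ratio of -1.04 (adjusted p = 0.0715).

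Of 5 genes of the distal convoluted tubule 3 were lower (13.6% of all genes), and 1 was lower without replicate 2 (6.9% of all genes), with list means of 10.17, 8.50 and 10.50 in group C and 10.08 to 11.24 in controls. The thiazide-sensitive transporter Slc12a3 had 10.94, 8.92 and 11.62 in group C and 10.98 to 12.14 in controls, a log2 ratio of -1.02 (adjusted p = 0.179), and the calcium buffer Pvalb had 11.41, 8.03 and 11.57 in group C and 11.18 to 12.62 in controls, a ratio of -1.64 (adjusted p = 0.119). The magnesium channel Trpm6 had 5.42, 4.91 and 6.05 in group C and 5.98 to 7.30 in controls, a ratio of -1.13 (adjusted p = 0.0471), and was detected on 1 group C array, with an adjusted p of 0.0934 to 0.21 without replicate 1 or 2. Without replicate 2 the median of the list was -0.24, against -1.02 with it. In groups A and B its median against the same controls was -0.49 and -0.62. Of 9 intercalated cell genes 3 were lower, and 0 without replicate 2, with a median of -0.44, and the chloride and bicarbonate exchanger Slc26a4 had 9.58, 7.87 and 10.70 in group C and 9.56 to 11.24 in controls. The median of the intercalated cell genes against controls was -0.42 in group A and -0.41 in group B. The low markers of the proximal and distal convoluted tubules in replicate 2 went with the low values of Hpd, Acsm5 and Inmt in that mouse. The part of these markers in those ratios was not tested.

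Among the group C mice the list mean of the thin limb markers was highest in replicate 2. Of 6 thin limb genes 3 were higher (13.1% of all genes), and 1 without replicate 2 (8.61% of all genes), with list means of 9.68, 10.41 and 9.58 in group C and 8.76 to 9.57 in controls. The list means of groups A (9.66 to 10.12) and B (9.75 to 10.26) also lay above all controls. Against controls the median was 0.66 in group A, 0.63 in group B and 0.53 in group C. Slc14a2 had 10.83, 11.73 and 10.42 in group C and 9.66 to 10.44 in controls, a log2 ratio of 0.95 (adjusted p = 0.0656), and Bst1, an ectoenzyme of NAD metabolism, had 7.20, 8.55 and 7.51 in group C and 4.99 to 6.97 in controls, a ratio of 1.41 (adjusted p = 0.0815). Of 12 genes of osmolyte and urea handling 5 were higher and 1 lower, and without replicate 2 the counts were 2 and 1. Their regulator Nfat5 had 10.83, 11.42 and 10.49 in group C and 9.96 to 10.49 in controls, a ratio of 0.65 (adjusted p = 0.0677), and the taurine transporter Slc6a6 had a ratio of 0.20 (adjusted p = 0.339). Gdpd5, which breaks down the osmolyte glycerophosphocholine, had 7.35, 7.02 and 7.16 in group C and 7.59 to 7.94 in controls, a ratio of -0.58 (adjusted p = 0.0334, and 0.0584 to 0.128 without replicate 1 or 2).

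In the thick ascending limb 2 of 10 genes were higher (13.1% of all genes), the regulated Ptger3 and the potassium channel Kcnj1. Kcnj1 had 10.31, 9.88 and 9.65 in group C and 8.76 to 9.45 in controls, a log2 ratio of 0.79 (adjusted p = 0.0452). Of 10 principal cell genes 1 was higher, Aqp2, with 10.93, 11.77 and 10.86 in group C and 10.11 to 10.98 in controls, a ratio of 0.73 (adjusted p = 0.107). Connexins form gap junctions between cells. Of 6 tested 2 were higher and 1 lower. Gja1 (connexin 43) had 9.58, 10.44 and 9.73 in group C and 8.26 to 9.32 in controls, a ratio of 0.98 (adjusted p = 0.0508). Gjc1 (connexin 45), detected on 2 of the 5 control arrays, had 1.08 (adjusted p = 0.0516). The lower connexin was Gja5 (connexin 40), with 6.08, 6.28 and 6.22 in group C and 6.53 to 6.83 in controls, a ratio of -0.55 (adjusted p = 0.0558). The brightest probe of Gjb2 (connexin 26) had 12.42, 11.90 and 11.98 in group C and 11.59 to 12.14 in controls, a ratio of 0.27 (adjusted p = 0.336), and a dimmer probe had 11.03, 10.41 and 10.25 in group C and 9.48 to 10.06 in controls, a ratio of 0.75 (adjusted p = 0.048). The adjusted p of Kcnj1 and of the dimmer Gjb2 probe was 0.112 to 0.133 without replicate 1 or 2.

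Markers of other cells were counted by list. At an unadjusted p under 0.05, 2 of 8 macrophage genes, 1 of 10 endothelial genes and 1 of 7 fibroblast and smooth muscle genes were higher, and 0 were lower in these lists, against 13.1% higher and 13.6% lower of all genes. None of 5 urothelial, 2 erythroid, 3 adipocyte and 2 podocyte genes differed at this level, and of 9 lymphocyte markers a single one, Cd79b, was tested. The mean of the macrophage list was 7.54, 7.05 and 7.50 in group C and 7.10 to 7.58 in controls, and that of the endothelial list was 9.23, 9.43 and 9.24 in group C and 9.01 to 9.35 in controls.

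Of the genes that the study's text names for this tissue 9 were tested. At an unadjusted p under 0.05, 5 were higher and 3 lower, against 13.1% and 13.6% of all genes. They were chosen on these mice, so that their direction is no independent evidence. Besides Vbp1, Ndufb9, Trp53inp1 and Slc38a2, which are given above, the iron and manganese transporter Slc11a1 had 10.56, 10.73 and 9.58 in group C and a mean of 9.15 ± 0.14 (SD, n = 5) in controls, all below group C, a log2 ratio of 1.14 (SE 0.21, adjusted p = 0.0163, and 0.0627 to 0.0725 without replicate 1 or 2). Pgam2, the muscle form of phosphoglycerate mutase, had 9.19, 6.70 and 9.46 in group C and 9.10 to 10.67 in controls, a ratio of -1.44 (adjusted p = 0.11). Klk1b27, a kallikrein of a family of near-identical genes, had 13.35, 12.45 and 13.99 in group C and 13.48 to 14.55 in controls, a ratio of -0.81 (adjusted p = 0.159), and its probe may also take up related kallikreins. For Pgam2 only replicate 2 lay below the control range.

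The ratio of group C was also compared between the medulla and the cortex, over 12920 probes detected in the kidney. A single transcript, Tomm22, passed the thresholds for a difference (0.00774%), while 1539 had an unadjusted p under 0.05 (11.9%). Its ratio was 1.31 higher in the medulla than in the cortex (SE 0.19, adjusted p = 0.0055), where group C and controls differed by -0.11. Most of the other regulated transcripts of the medulla also had small ratios in the cortex. The cortical log2 ratio was 0.01 for Vbp1, -0.15 for Ankrd17, -0.15 for Chmp5, -0.13 for Bcl2, -0.21 for Ptger3 and -0.02 for Mep1a. Noct with 0.71 and Rpl22l1 with 0.46 had the highest cortical ratios among the 16. The adjusted p of the difference between medulla and cortex was 0.0237 for Ankrd17, 0.0237 for Bcl2, 0.0458 for Vbp1, 0.0567 for Ptger3, 0.153 for Rpl22l1 and 0.785 for Noct. These genes were chosen by their ratio in the medulla, which is 1 side of this difference, so that it describes them and is no separate support.

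The median log2 ratio of the p53 targets was 0.39 in the medulla and 0.37 in the cortex, and 1 of 25 had a medulla-cortex difference at an unadjusted p under 0.05. The cortical log2 ratio was 2.61 for Cdkn1a, 0.70 for Ccng1, 1.43 for Phlda3, 0.53 for Zmat3, 0.37 for Mdm2 and 0.66 for Ephx1. Probes of the Eef1a1 type had small ratios in the cortex, with 0.05 for Eef1a1, -0.19 for Mdh1 and 0.01 for Acin1. The medulla and cortex of a mouse come from the same kidneys, and the fit took their arrays as separate samples.

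**Figure D5:**
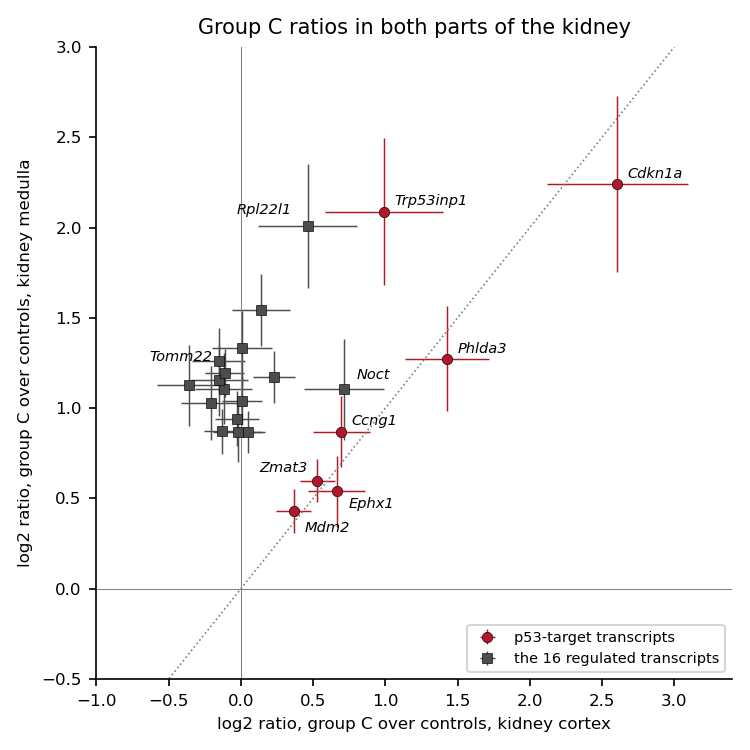
Log2 ratio of group C against controls in the kidney cortex (horizontal axis) and in the kidney medulla (vertical axis), from a joint fit of both tissues, for p53 target probes and for the 16 regulated transcripts of the medulla, with error bars of 1 SE and a line of equal ratios. The p53 targets other than Trp53inp1 lie along the line of equal ratios, while most regulated transcripts of the medulla lie near 0 in the cortex.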

How the data were processed

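Total RNA of 6 tissues of 14 mice was hybridized by the authors to Illumina MouseRef-8 arrays. The deposited intensity values without normalization, summarized per probe, were used, and the authors' second set of intensity values had been preprocessed and quantile-normalized by them in the BioArray Software Environment. The deposited table also gives detection p-values, and how these were computed is not given in the sources used here, nor is a genome build. Of 25697 probes 23978 carried 1 gene symbol and 1719 none, and of 16593 Entrez identifiers 16582 matched the gene table. Promoter sequences are from RefSeq.

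Intensities were background-corrected with an offset of 16 by nec (R 4.3.3, limma 3.58.1), taken to log2 and quantile-normalized over the 14 medulla arrays. A linear model over all 4 groups with empirical Bayes moderation was fitted to the 12296 probes with a detection p under 0.01 on at least 3 arrays, so that the groups share 1 estimate of the spread. The thresholds are those of the study, whose methods do not name the test. The number of arrays limits the precision, and a signal near background cannot show a difference. For the comparison with the cortex the 28 kidney arrays were normalized and fitted together. A bound on a fold sets the mean of the brighter group against the higher of the lowest detected signal and the probe's own signal on each array of the other group. The procedure was tested on simulated data.

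The members and the 33 gene lists were chosen with earlier results of these data known. Lists were described by the brightest probe of each gene, without a list test. Genes were named by a rule: all regulated transcripts, the 10 probes with the largest ratios in each direction without overlap between the groups, the p53 targets and the genes the study names, and from other lists up to 4 members with the smallest p and the 2 brightest. Not all of these are printed. Genes of the Eef1a1 type and the second probes were named after their values were seen. Alternatives changed the background correction, the normalization, the detection filter, the arrays in the fit, the variance model, a replicate block and the leaving out of single mice. The list values without single group C mice were added after the data were seen.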

Additional observations from a re-analysis of the deposited data

Results flagged for a closer look

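Among 149 levels checked in the medulla, 6 had 1 control mouse far from the other controls, and chance alone marks about 1 in 20 such groups. Control replicate 3 had a log2 intensity of 4.90 for Itm2b, where the nearest of the other controls had 4.55. Control replicate 3 had 6.53 for Gja5, against a nearest value of 6.77. Control replicate 4 had 4.94 for Txnrd1, against a nearest value of 5.38. The DNA repair list had a mean of 7.56 in control replicate 1, against 7.66, and the translation elongation list had 9.51 in control replicate 4, against 9.63. Cd79b, the only lymphocyte marker tested, had 7.62 in control replicate 2, against 6.42.

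The log2 ratio of Tomm22 in group C differed between the medulla and the cortex by 1.31 in the test of the difference itself.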

How the results depend on the processing

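The count of 16 regulated transcripts, all higher in group C, was 16 (15 higher and 1 lower, 11 of the 16 shared) with the authors' normalized values, 17 without background correction and 17 with an offset of 50 (each 16 higher and 1 lower), and 15 with quantile normalization over all tissues. It was 1 with median scaling and 6 without a detection filter, both higher only, and 28 (24 higher and 4 lower) with probes detected on every array of a group. It was 390 (346 higher and 44 lower) with array weights and 37 (35 higher and 2 lower) with a variance trend and robust fit. With only group C and controls in the fit it was 0, as calls and as higher calls, and 2476 transcripts then had an unadjusted p under 0.05. Leaving out 1 mouse gave 0 to 844 regulated transcripts, 0 to 599 of them higher and 0 to 245 lower, and the 844 were reached without group C replicate 3. Against group A and against group B the count was 0 under each of these settings that was run. The cause of these changes was not tested.

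Medulla and cortex differed in 1 transcript. This count was 0 with a variance trend and robust fit, 0 without group C replicate 1 or 2 in the medulla, 328 (295 higher and 33 lower) without replicate 3 in the medulla, 0 without replicate 1 or 3 in the cortex, and 0 to 1 without 1 control mouse.

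Whether the replicate numbers pair mice of different groups was not settled. Same-numbered medulla arrays of different groups had deviations correlated by -0.12 to 0.21, and those of group C and controls by 0.08 to 0.16. Arrays of different groups and different numbers had -0.23 (group A replicate 3 with group C replicate 2) to 0.18 (group B replicate 1 with control replicate 3). With the replicate number as a block 0 transcripts were regulated, 26 had an adjusted p under 0.05 and 2599 an unadjusted p under 0.05. In the joint fit with group and number as a mouse the count stayed 1, but whether a number is the same mouse in both tissues was not settled. In group C the medulla correlated with the same-numbered cortex array at 0.42, -0.35 and -0.36 for replicates 1, 2 and 3. The highest correlation with another array was 0.24, 0.58 and 0.26. Each of the printed probes kept its direction under all settings run except the brightest Suclg1 probe, with a log2 ratio of -0.0867 (adjusted p = 0.721) under median scaling against 0.06. A probe near background bounds a fold only, and 3 against 5 arrays limit what can be called.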
